A study of Drosophila melanogaster with 4 samples.

Results

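Chromosome 4 is the small dot chromosome of Drosophila melanogaster, and Myb binding along it was measured here in 1-kb bins of a tiled microarray. The array design that carries it has 15398 probes on chromosome 4, between positions 1 and 1351747 of the dm3 (release 5) assembly. Bins were counted from position 1, and the 1323 bins with 5 or more probes were kept, of 1348 with any probe. They are 1.76% of the 75145 bins of that array design, with a median of 12 probes a bin. The value of a bin is the log2 ratio of Myb immunoprecipitate signal to input, averaged over its probes and centred so that the median of all probes of the array is 0.

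Chromatin was prepared from wing imaginal discs, epithelial sacs of the larva that form the wing and thorax wall of the adult, dissected from 3rd instar male larvae of the yw67 strain, the control strain of the study, with no mutation of Myb. ChIP-chip compares DNA recovered with an antibody from crosslinked, sonicated chromatin (Cy5) with sonicated genomic input DNA (Cy3) on the same array. There were 2 biological replicates, each from pooled discs and each on 1 array of this design, with the same dye orientation. All samples are of 1 genotype, so the comparisons are between chromosome 4 and chromosome arm 3R of the same arrays. A difference in level between them does not depend on how an array is centred, while counts of bins above or below 0 and calls do. The replicates were scanned at different times, so replicate and scan cannot be told apart. No array without antibody or without Myb was analysed, and the background is therefore the input and the rest of the genome.

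Chromosome 4 is known for chromatin that resembles pericentric heterochromatin along its gene-bearing arm, with the heterochromatin protein HP1a, methylation of histone H3 at lysine 9 and its own binding protein, POF, while many of its genes are nonetheless transcribed. It hardly undergoes meiotic crossing over, and repeats and remnants of transposons lie between and inside its genes. Myb is a DNA-binding subunit of the Drosophila dREAM (Myb-MuvB) complex, which sits at many promoters and is known above all for the control of genes of G2 and mitosis. These arrays do not measure heterochromatin marks, so "heterochromatin-like" describes what is known of the chromosome and not a measured value.

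The level of chromosome 4 lay below that of chromosome arm 3R in both replicates, by a small margin that differed between them. In replicate 1 the median bin was −0.17 on chromosome 4 and 0.05 on 3R, a difference of −0.22. In replicate 2 it was 0.04 on chromosome 4 and 0.09 on 3R, a difference of −0.05. The mean difference was −0.14 ± 0.12 (SD, n = 2) on the log2 scale, so it was hardly larger than the spread between the replicates. An exact sign-flip test of 2 replicates cannot give a two-sided p below 0.5, and no p is given for it. Bins above 0 in both replicates made up 28.7% of chromosome 4 (380 bins), against 45.1% of 3R and 36% of all bins of the array design. Centred on the mode of the array the share was 44.9% on chromosome 4 and 60.2% on 3R, and centred on the median of 3R probes it was 23.6% and 39.1%, so its size rested on the centring while chromosome 4 was the lower one in each. Bins below 0 in both made up 40.3% of chromosome 4 and 32.5% of 3R.

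The 75th percentile was lower on chromosome 4 than on 3R in both replicates, while the replicates differed in direction at the 95th. The 75th percentile of chromosome 4 was 0.10 in replicate 1 and 0.29 in replicate 2, against 0.37 and 0.43 on 3R. The 95th percentile of chromosome 4 was 0.72 in replicate 1 and 1.18 in replicate 2, against 0.86 and 1.06 on 3R, so it was lower on chromosome 4 in one replicate and higher in the other. Measured from the chromosome's own median, the 95th percentile stood 0.90 and 1.14 above it on chromosome 4 and 0.81 and 0.97 above it on 3R, while the distance between the 25th and 75th percentiles was narrower on chromosome 4 (0.48 and 0.46) than on 3R (0.60 and 0.59). Bins above 1 in both replicates made up 1.28% of chromosome 4 (17 bins) and 1.29% of 3R. In replicate 1 alone, bins above 1 made up 1.36% of chromosome 4 and 2.45% of 3R, and in replicate 2 alone 6.58% and 5.87%. The middle of the distribution was thus narrower and lower on chromosome 4, while the replicates differed on which chromosome had the larger share of tall bins.

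**Figure D1:**
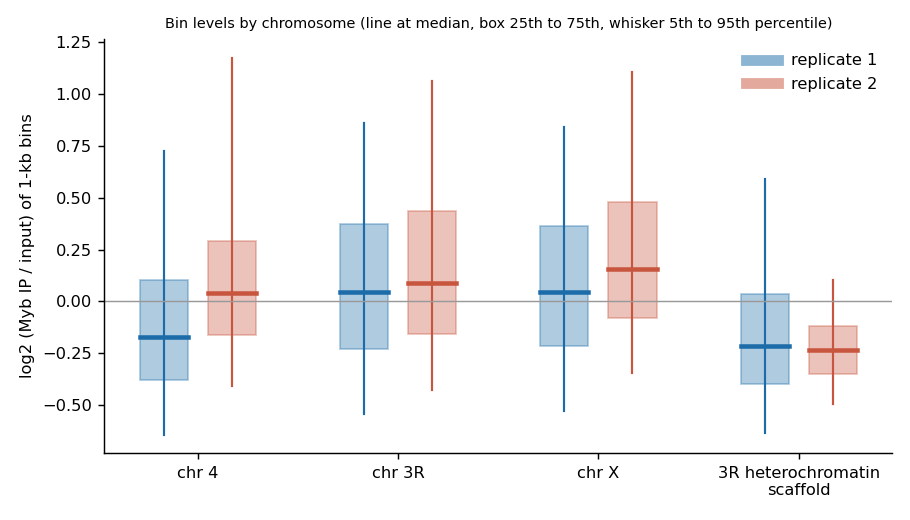
Percentiles of the Myb/input log2 ratio (y axis) of 1-kb bins on chromosome 4, chromosome arm 3R, the X chromosome and the assembled 3R heterochromatin scaffold (x axis), for each replicate: line at the median, box between the 25th and 75th, whiskers at the 5th and 95th percentiles. The chromosome 4 medians are −0.17 and 0.04, against 0.05 and 0.09 on 3R, while its upper whiskers end at 0.72 and 1.18, against 0.86 and 1.06 on 3R.

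Chromosome 4 was also set against the assembled heterochromatin of 3R, which holds repeat-rich sequence next to the centromere. The median of chromosome 4 was −0.17 and 0.04 in replicates 1 and 2, against −0.21 and −0.23 in that scaffold. The 95th percentiles lay further apart, at 0.72 and 1.18 on chromosome 4 against 0.59 and 0.10 in the scaffold. In replicate 1 the median of chromosome 4 therefore lay near that of the 3R scaffold, and in replicate 2 near that of 3R. In the assembled heterochromatin of 3L the medians were −0.16 and −0.18. The median input intensity of the 3R scaffold was 4146 and 3533, against 579 and 381 on chromosome 4. The scaffolds were not compared with chromosome 4 at matched input. The replicates correlated with Pearson's r = 0.73 (Spearman's rho = 0.64) over the 1323 bins, against r = 0.74 (rho = 0.74) over the 3R bins, where bins share arrays and neighbors and are no independent points. Replicate 2 was the higher one in 79.3% of chromosome 4 bins and in 60.7% of 3R bins.

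The input signal, which the choice of bins did not use, was lower on chromosome 4 than on 3R in both replicates by a like amount. The median input intensity of its probes was 579 in replicate 1 and 381 in replicate 2, against 883 and 585 on 3R, which is −0.61 and −0.62 on the log2 scale. The immunoprecipitate signal was lower still, with medians of 549 and 398 on chromosome 4 against 1006 and 638 on 3R. The X chromosome also had a lower input than 3R, with medians of 678 and 450, or −0.38 and −0.38 on the log2 scale. The input was well above background at 97.4% and 95.1% of chromosome 4 probes, against 98.7% and 97.8% on 3R. The spread of the input between bins was wider on chromosome 4, with an SD of 1.58 and 1.76 on the log2 scale against 1.05 and 1.16 on 3R.

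The ratio was therefore compared between bins in the same bands of input. The chromosome 4 bins of each replicate were divided into 4 bands of equal size by their input signal, and the 3R bins were placed in the same bands. In replicate 1 the lowest band ran from 4.13 to 8.16 and the highest from 10.1 to 14.1 on the log2 scale. Bins were not matched within a band. In the band of lowest input, the median of chromosome 4 was −0.11 in replicate 1 and 0.35 in replicate 2, against 0.45 and 0.85 on 3R. In the second band it was −0.21 and 0.08, against 0.26 and 0.40 on 3R, and in the third −0.24 and −0.05, against 0.07 and 0.09 on 3R. In the band of highest input the chromosomes were close, at −0.15 and −0.08 on chromosome 4 against −0.13 and −0.13 on 3R. The gap between chromosome 4 and 3R was thus largest, −0.56 and −0.50, where the input was lowest, and larger there than the spread between replicates. Over the middle bands joined, the difference in medians was −0.36 and −0.17, against −0.22 and −0.05 over all bins. The input is the denominator of the ratio, so a bin whose input is measured too low comes out too high on either chromosome.

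**Figure D2:**
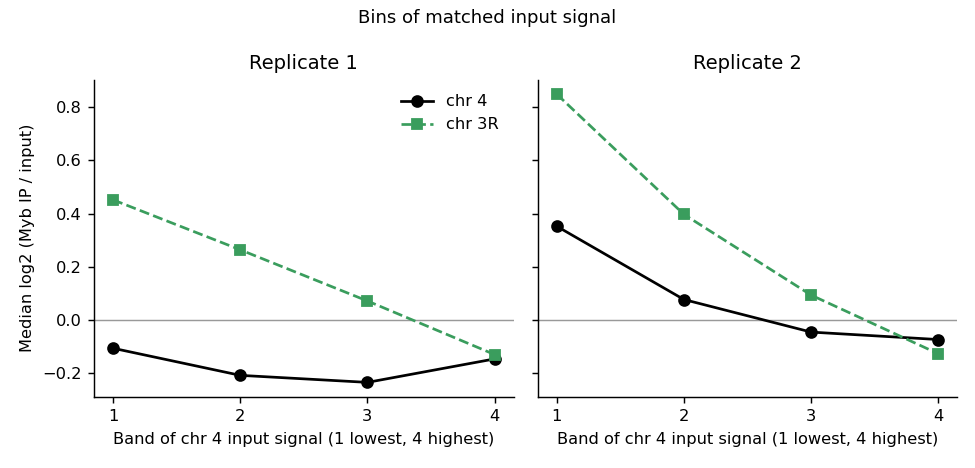
Median Myb/input log2 ratio (y axis) of chromosome 4 bins (black circles) and 3R bins (green squares) in 4 bands of input signal (x axis, 1 lowest, 4 highest), set by the chromosome 4 bins of each replicate. The chromosome 4 median differs from that of 3R by −0.56 and −0.50 in the lowest band of replicates 1 and 2, and differs from it by −0.02 and 0.05 in the highest band.

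Tested bin by bin, Myb was enriched over input in 147 of the 1323 chromosome 4 bins, or 11.1%, and depleted in 54, or 4.08% (limma, intercept-only fit over all bins, adjusted p below 0.05). Of all bins of the array design, 13.8% were called enriched and 5.05% depleted, and of the 3R bins 19.2% and 3.49%. On the X chromosome the shares were 19.2% and 1.92%. The share of chromosome 4 bins called enriched was thus below that of all bins, and the share called depleted was near it. The enriched bins of chromosome 4 had mean log2 ratios between 0.49 and 1.74, with medians of 0.64 in replicate 1 and 1.11 in replicate 2, against 0.67 and 0.79 in the enriched 3R bins. With the threshold at an adjusted p of 0.01, 6.42% of chromosome 4 bins remained called enriched, against 9.15% of 3R bins and 6.39% of all bins. At an unadjusted p below 0.05, 219 of the 1323 bins of chromosome 4 lay above 0 and 191 below it. Of all 75145 bins of the array design these were 16210 and 10606, and of the 27643 bins of 3R 7781 and 2941.

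The balance of the calls on chromosome 4 depended on where an array was centred. Centred on the median of 3R probes, 115 bins were enriched and 106 depleted, centred on the mode of the array 221 and 17, and with loess normalization on intensity 171 and 181. In each of these the share of enriched bins was lower on chromosome 4 than on 3R (8.69% against 15.0%, 16.7% against 29.0% and 12.9% against 21.3%). Of all bins of the array design, 10.6%, 21.8% and 16.4% were enriched. The depleted shares on chromosome 4 were 8.01%, 1.28% and 13.7%, against 8.44%, 1.54% and 8.12% of all bins. The share of depleted bins was higher on chromosome 4 than on 3R under each of these settings and in the first fit. In the first fit it became 3.42% against 3.49% once the longest depleted run, of 9 kb, was left out.

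By the median, enriched bins lay where the input was low. The input of the enriched chromosome 4 bins differed by −1.61 and −1.89 from the chromosome's median on the log2 scale, and their immunoprecipitate signal by −0.73 and −0.75, so the signal fell less in the immunoprecipitate than in the input. On 3R the enriched bins differed from the arm's median by −0.80 and −0.94 in input and by −0.19 and −0.26 in the immunoprecipitate. Across chromosome 4 bins the ratio had a Spearman's rho with the input of −0.01 in replicate 1 and −0.41 in replicate 2, against −0.39 and −0.56 across 3R bins, as a description. The part of the input in the calls was not tested.

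Myb-bound regions were called by joining runs of at least 4 probes that stand out from the noise, with the spacing and p limits of the study's methods. The p-values came from a normal fitted to the lower side of the mean of both replicates and not from the Whitehead per-array model that the study used, so the regions are not those of the study. There were 94 regions on chromosome 4, or 6.95 per 100 kb, against 14.6 per 100 kb on 3R. They held 10.5% of chromosome 4 probes, against 18.7% of 3R probes and 14.8% of all probes of the array design. Chromosome 4 regions were fewer but longer by the median, 1138 bp against 776 bp on 3R. Of the 94, 20 (21.3%) were at least 2 kb long, against 17.4% on 3R, and the longest was 6975 bp against 12579 bp. The median region stood at 0.74 and 1.21 in replicates 1 and 2 on chromosome 4, against 0.76 and 0.85 on 3R. All 94 were above 0 in both replicates, as were 4057 of 4070 on 3R. Regions were called on the mean of both replicates, so their values describe them and do not test them.

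The shortfall of chromosome 4 regions against 3R was smaller at stricter limits. With the mean p of neighboring probes below 0.01 in place of 0.05, chromosome 4 had 5.10 regions per 100 kb against 8.68 on 3R. With the limit at 0.001, 51 regions were called on chromosome 4, at 3.77 per 100 kb against 4.14 on 3R. These regions held 3.05% of probes against 2.94% on 3R. They were called afresh, so 1 region at 0.05 could give several at 0.001. The region at 520627 to 527601, for example, held separate ones at 521849 to 522718 and 525606 to 526315. The input of the regions called at 0.05 differed from the chromosome's median by −1.62 and −1.93 on chromosome 4 and −0.90 and −1.03 on 3R. Its part in the change was not tested, and the stricter limits were not combined with another background correction. Called on one replicate alone, replicate 1 gave 90 regions and replicate 2 gave 181. Of the 90 regions, 77.8% overlapped a region of replicate 2, and of the 181 regions 29.3% overlapped one of replicate 1. Of the 94 regions, 60 were overlapped by regions of both.

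Enrichment was patchy along the chromosome. In consecutive 100-kb stretches the median bin ranged between −0.34 and 0.19 in replicate 1 and between −0.07 and 0.44 in replicate 2. The stretch between 500001 and 600000 had the highest mean, with medians of 0.16 and 0.44 (0.30 ± 0.20, SD, n = 2), and 31 of its 100 bins were enriched. Its first 50 kb, which holds zfh2, stood highest of all 50-kb stretches in both replicates, with medians of 0.24 and 0.64 and 24 of 50 bins enriched. The 50-kb stretch that holds pan, between 50001 and 100000, came next by its mean, with medians of 0.04 and 0.46 and 14 of 48 bins enriched. Between 250001 and 300000 the medians were the lowest by the mean, at −0.39 and −0.22, and no bin was enriched. Neighboring bins were alike, with a correlation of a bin with the next of 0.63 and 0.69 on chromosome 4 and 0.69 and 0.74 on 3R.

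**Figure D3:**
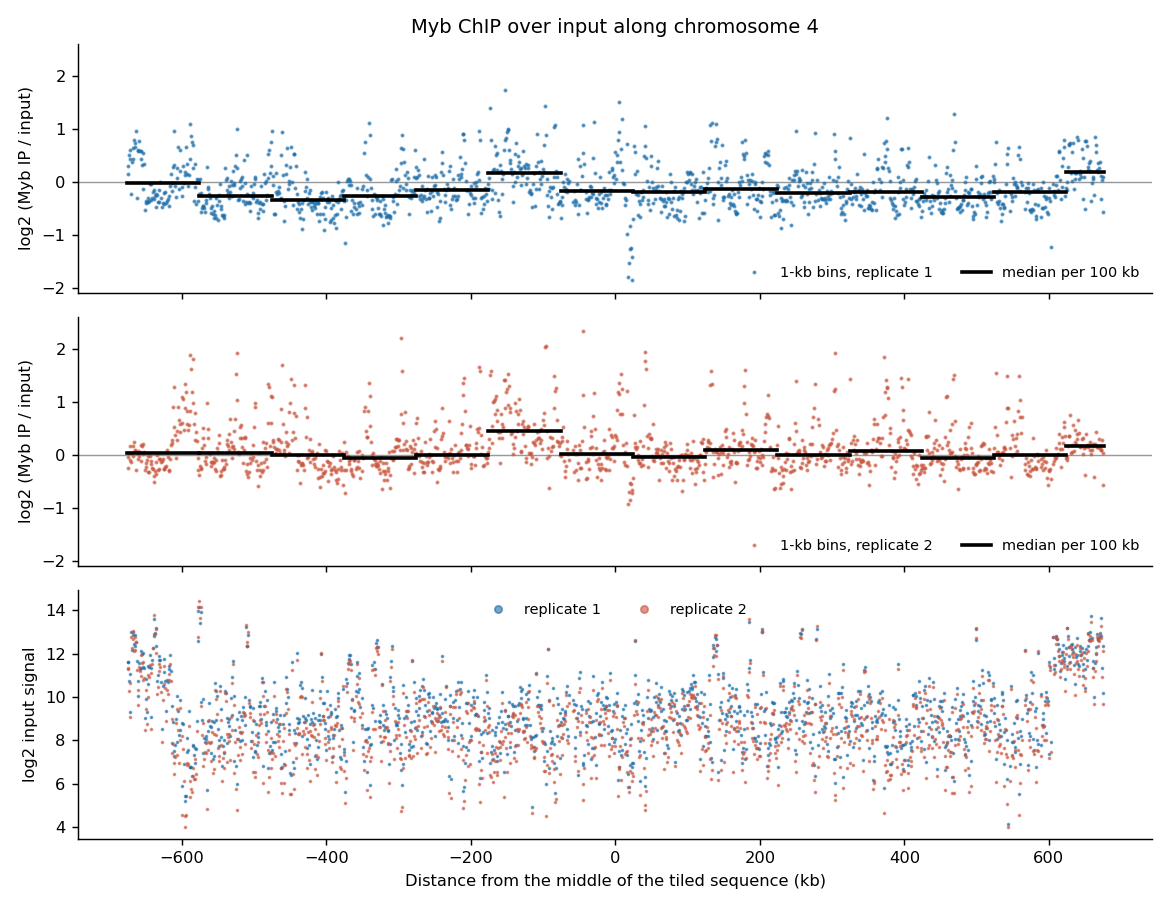
Log2 Myb/input ratio of the 1323 chromosome 4 bins in replicate 1 (top) and replicate 2 (middle) and their log2 input signal (bottom), against the distance from the middle of the tiled sequence in kb; black lines are medians of 100-kb stretches. The highest stretch has medians of 0.16 and 0.44, and the input rises at both ends of the chromosome.

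Long runs of bins above 0 held fewer of such bins on chromosome 4 than on 3R, while the median run was 2 kb on both, for either sign, and single bins made up 40.2% of the runs above 0 on chromosome 4 and 40.1% on 3R. Bins above 0 in both replicates formed 132 runs with a mean length of 2.88 kb and a longest of 13 kb, against 2721 runs with a mean of 4.59 kb and a longest of 81 kb on 3R. Runs of 5 kb or more held 44.2% of such bins on chromosome 4 and 72.9% on 3R. With 1323 bins on chromosome 4 and 27643 on 3R, the longest runs are not on an equal footing. The share of bins above 0 in both also differed (28.7% against 45.1%), and its part in the run lengths was not tested. Runs were not counted under another centring. Bins below 0 in both replicates formed runs with a mean of 3.15 kb on chromosome 4 and 3.46 kb on 3R, and the longest on chromosome 4 was 22 kb, between 24001 and 46000. Divided into 20 stretches as long as the tiled chromosome 4, 3R had medians between −0.15 and 0.19 in replicate 1, all above that of chromosome 4, and between −0.11 and 0.25 in replicate 2, of which 7 were below it. The share of enriched bins in these 3R stretches was between 12.4% and 27.3%, and all 20 lay above the 11.1% of chromosome 4.

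Among the regions that could be given a gene, the longest were at zfh2, pan and CG11077, and the highest bin by its processed signal was at Pur-alpha and Thd1. The names zfh2, pan, Pur-alpha and Thd1 come from a list of bound regions of the study, so a gene without a bound region could not be named in this way. The longest Myb-bound region, 6975 bp between 520627 and 527601, lay at zfh2, a zinc-finger homeodomain transcription factor with a patterned expression in the wing disc. Its 85 probes averaged 0.94 in replicate 1 and 1.25 in replicate 2 (1.09 ± 0.22, SD, n = 2). It held the bin with the highest value of replicate 1, at 522001 to 523000, with 1.72 and 1.41 (limma adjusted p = 0.000795). In this bin the immunoprecipitate intensity was 2270 and 1672, against an input of 668 and 641, and all 12 probes were well above background in both. The run of enriched bins at zfh2, from 521001 to 531000, was 10 kb long and the longest on the chromosome.

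The second longest region, 4736 bp between 87026 and 91761, lay at pan (pangolin), the TCF protein through which Wingless signaling acts on its target genes. It averaged 0.78 in replicate 1 and 1.58 in replicate 2 (1.18 ± 0.57), so its height differed between the replicates more than at zfh2. Its highest bin, 87001 to 88000, had 1.08 and 1.88 (adjusted p = 0.0011), with an immunoprecipitate intensity of 235 and 152 against an input of 108 and 41.9. The input of this bin differed by −2.37 and −3.16 from the median of chromosome 4 on the log2 scale, and it was well above background at 11 and 7 of its 12 probes.

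The highest bin of chromosome 4 by the mean of both replicates, 578001 to 579000, lay at Pur-alpha, which encodes a single-stranded nucleic acid-binding protein, and its neighbor Thd1, a thymine DNA glycosylase of base excision repair. It had 1.43 in replicate 1 and 2.04 in replicate 2 (1.74 ± 0.43, adjusted p = 0.000795), with an immunoprecipitate intensity of 623 and 390 against an input of 224 and 96.6. The next bin, 579001 to 580000, had 0.88 and 2.05 (adjusted p = 0.00207). Both were in 1 region of 2900 bp between 577303 and 580202, with averages of 1.03 and 1.65. The rank of the highest bin depended on the processing: with normexp background correction the bin at 522001 at zfh2 stood above it (1.502 against 1.34), and in the authors' table of log2 values the bin at 631001 did (2.04 against 1.82).

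**Figure D4:**
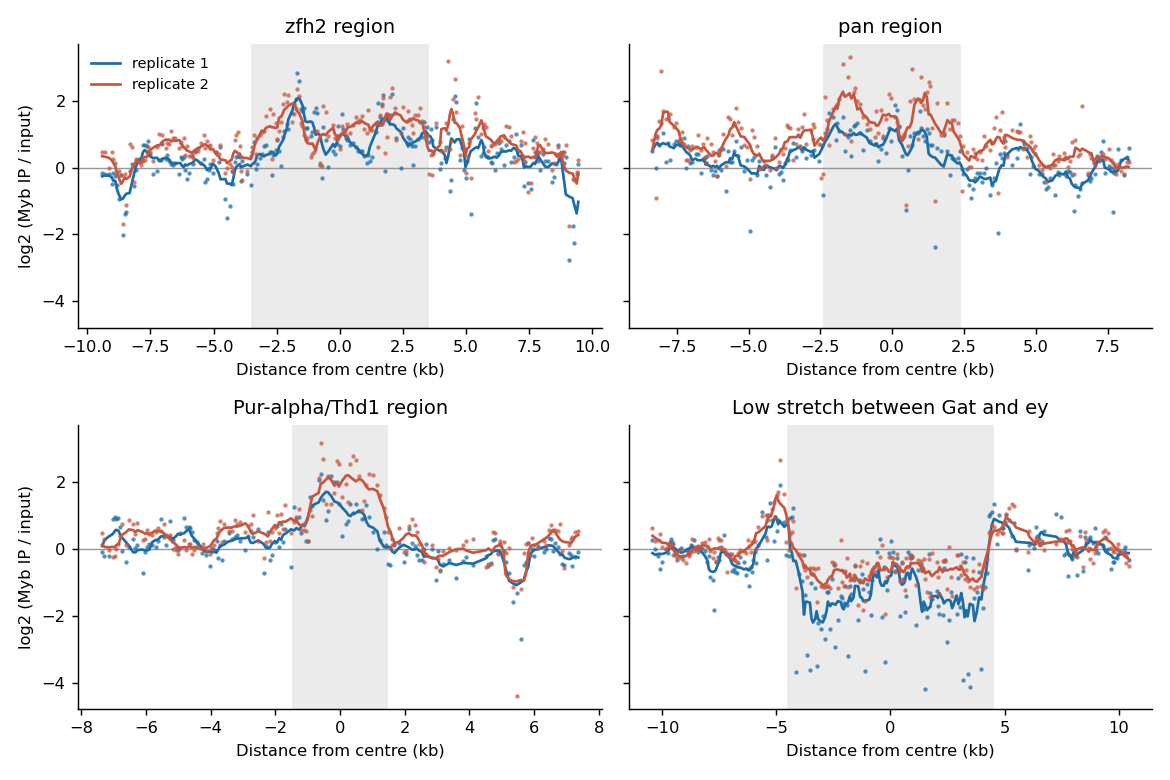
Log2 Myb/input ratio (y axis) of single probes in replicate 1 (blue) and replicate 2 (red), with running means over 7 probes as lines, against the distance in kb from the centre of the Myb-bound regions at zfh2, pan and Pur-alpha/Thd1 and of the run of depleted bins between Gat and ey; the region or run is shaded. The region averages are 0.94 and 1.25 at zfh2 and 0.78 and 1.58 at pan, and the depleted run averages −1.30 and −0.63.

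The other bins among the 10 highest could only be placed between genes. The bin at 631001 to 632000, between onecut and Gat, where the release 6 annotation has the ephrin receptor gene Eph and the TGF-beta ligand gene mav, had 1.08 in replicate 1 and 2.34 in replicate 2 (adjusted p = 0.00141). Its immunoprecipitate intensity was 268 and 191 against an input of 123 and 38.3. The bin at 717001 to 718000, between Gat and ey, had 1.05 and 1.94, and its region reached over 3210 bp. The bin at 152001 to 153000, between pan and CG31999, had 0.99 and 1.91. The bins at 379001 and 502001, both between CG31999 and zfh2, had 0.64 and 2.20 and 1.39 and 1.504. In replicate 2 the input was well above background at only 3 of 10 probes of the bin at 152001, 5 of 12 at 379001 and 6 of 12 at 717001, so the replicate 2 ratios of these bins rest in part on input that was not measured above background. The bin at 1144001 to 1145000, between sv and CG11155, where release 6 has Cals and Arf4, had 1.27 and 1.495.

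All 10 highest bins passed the limma test (adjusted p between 0.000795 and 0.00543). They were picked by the highest mean of the same 2 replicates that the test used, so passing it is no further support. All of them kept their call under each alternative that measured them. For the bin at 152001 this leaves out the alternative restricted to probes well above background. Their size did not hold in the same way. With normexp background correction the means fell to 0.52 at 579001, 0.48 at 152001, 0.59 at 379001, 0.64 at 717001 and 0.71 at 87001, against 1.46, 1.45, 1.42, 1.49 and 1.48 with the processed signal. In 9 of the 10 the ratio was higher in replicate 2, and in 9 the input was below the chromosome 4 median in both replicates. The immunoprecipitate signal was above the chromosome's median in both replicates in only 2 of them, the highest bin at Pur-alpha and the one at zfh2. In the other 8 the high ratio went with an input well below the median and an immunoprecipitate that was also below it but less so. Among the regions, the highest mean was at 980448 to 980827, between mGluR and CG11077, where release 6 has 4E-T, fuss, toy and PlexA. It rested on 5 probes with 1.06 in replicate 1 and 2.90 in replicate 2 (1.98 ± 1.30), a spread as wide as the replicate 1 value itself. The region at 1000441 to 1001045, in the same interval, had 1.17 and 1.89.

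The longest run of depleted bins was 9 kb, from 692001 to 701000, between Gat and ey, an interval where release 6 has Ekar, gw, CG46466, Slip1, CG11360 and myo. Of the 38 depleted runs on chromosome 4 no other was over 3 kb, while the longest of the 699 on 3R was 12 kb. The bins of the 9-kb run were between −1.85 and −0.71 in replicate 1 and between −0.94 and −0.21 in replicate 2. All 9 were below 0 in both. Its edges were sharp: the bins on either side, at 691001 and 701001, were enriched, with 0.71 and 1.21 (adjusted p = 0.00322) and 0.68 and 0.74 (adjusted p = 0.00809). The input of the run differed by −2.17 and −2.08 from the median of chromosome 4 on the log2 scale, and the immunoprecipitate by −3.36 and −2.86 from its own, so both channels were weak and the immunoprecipitate weaker.

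The run held 7 of the 10 lowest bins of chromosome 4. The lowest, 693001 to 694000, had −1.80 in replicate 1 and −0.94 in replicate 2 (adjusted p = 0.00153), with an immunoprecipitate intensity of 25.3 and 29.1 against an input of 86.0 and 56.7. In the whole run 68.5% and 71.3% of probes were well above background in the immunoprecipitate and 74.1% and 67.6% in the input, so the ratio of the other probes is not a measured value. Restricted to probes well above background in both channels, the run averaged −0.82 in replicate 1 and −0.44 in replicate 2, against −1.30 and −0.63 over all its probes. This restriction leaves out probes with a low immunoprecipitate signal, so a shallower dip follows from it in part.

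The other lowest bins were at 301001, between CG31999 and zfh2, at 1278001, beyond Cadps, and at 904001, inside unc-13. The bin at 301001 had −1.16 and −0.72 (adjusted p = 0.00329), but its call was lost in the authors' table of log2 values (−0.41, adjusted p = 0.201). It was also lost over the probes well above background, at most 7 of 13 (−0.36, adjusted p = 0.193), a restriction that leaves out probes with a low immunoprecipitate signal. The bin at 904001 to 905000 had −0.86 and −0.55 (adjusted p = 0.0106) with every probe well above background, an immunoprecipitate intensity of 360 and 274 and an input of 637 and 408.

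Both ends of chromosome 4 had a high input. In the first 50 kb the input was 2.48 and 2.69 above the chromosome's median on the log2 scale, and from 1250001 to the end it was 2.63 and 2.91 above it. The first 50 kb had median ratios of −0.13 and −0.09 with none of its 49 bins called by limma. Of these bins, 11 had an unadjusted p below 0.05, against 366 of the 1176 bins between the ends. The far end had medians of 0.03 and 0.09, with 11 bins enriched and 4 depleted of 98. Within it the medians were −0.26 and −0.09 between 1250001 and 1300000. Between 1300001 and 1350000 they were 0.20 and 0.16, with 8 of 50 bins enriched. Without both ends the median difference between chromosome 4 and 3R was −0.23 and −0.05, close to that with them.

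Release 6 has 80 protein-coding genes on chromosome 4. In dm3, 14 chromosome 4 genes could be placed, through transcripts in the head of an expression table of the study that is ordered by its test of Myb mutants against yw67. They are thus not a sample of the chromosome's genes. Their dm3 order matched the release 6 order at 12 of 12 steps, for the 13 genes that release 6 also names. The source gives no strand, so neither end of a transcript is called its start.

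Over these transcripts the Myb ratio was low. The mean over the transcript was below 0 in both replicates for 13 of the 14 genes, with medians of −0.28 in replicate 1 and −0.13 in replicate 2. The count rested on the centring: it was also 13 centred on the median of 3R probes, but 5 centred on the mode of the array. Of 417 genes on 3R placed in the same way, 6.47% were below 0 in both and 78.9% above 0 in both, with medians of 0.40 and 0.30. Of all 3R bins, 45.1% were above 0 in both. The 3R gene shares were not counted under another centring. The bins that overlap the 14 transcripts were enriched in 2 of 161 and depleted in 14, or 8.70%, against 12.5% enriched and 3.44% depleted of the other 1162 chromosome 4 bins. The input of both sets of bins was close, at 9.26 and 8.69 against 9.10 and 8.52 on the log2 scale. Within 500 bp of the outer ends of the transcripts, the median was −0.20 and −0.01 on chromosome 4 (28 ends) against 0.36 and 0.38 on 3R. Genes are not replicates, and no test was made of this difference.

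Among the transcription factors, 3 of 9 listed genes could be placed by a transcript, and each was below 0 in both replicates. The body of ey, the Pax6 protein that directs eye development, averaged −0.21 in replicate 1 and −0.13 in replicate 2, and none of its 8 bins was called. The body of sv, the Pax2 protein of bristle and eye cells, averaged −0.32 and −0.01, and that of onecut, a cut-homeodomain factor of the nervous system, −0.07 and −0.14, with 1 bin depleted in each. A Myb-bound region of 482 bp lay inside sv, between 1118387 and 1118868, with 0.77 in replicate 1 and 0.83 in replicate 2. The transcription factor genes zfh2 and pan were placed through the list of bound regions and not through a transcript, so their values cannot be set against these.

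Of the 6 listed genes for neuronal membrane and synapse, 5 could be placed and all 5 were below 0 in both replicates, with 10 of their 86 bins depleted and none enriched, where 4.08% of all chromosome 4 bins were depleted and 11.1% enriched. As 13 of all 14 placed genes were below 0 in both replicates, the sign does not set these 5 apart. The body of unc-13, which primes synaptic vesicles for release, averaged −0.32 in replicate 1 and −0.19 in replicate 2, and 7 of its 32 bins were depleted. CG11155, which encodes a glutamate-gated channel subunit, averaged −0.48 and −0.33, the lowest mean of the 14. Cadps, a factor of dense-core vesicle release, averaged −0.34 and −0.12, the GABA transporter gene Gat −0.28 and −0.21, and the glutamate receptor gene mGluR −0.27 and −0.02. None of the listed signaling, chromatin or housekeeping genes could be placed by a transcript.

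The exception was CG11077, which encodes a homolog of the mitochondrial membrane protein Mpv17. Its short transcript averaged 0.33 in replicate 1 and 0.68 in replicate 2 (0.50 ± 0.25, SD, n = 2), and its bin was enriched (adjusted p = 0.0313). Around its higher-coordinate end the probes averaged 0.57 and 0.98. It lay at the low-coordinate edge of the third longest Myb-bound region, 4382 bp between 1049426 and 1053807, with 0.69 and 1.17. Of the other genes, apolpp, the precursor of the lipid carrier lipophorin, averaged −0.22 and −0.26, and the 4 remaining ones had means between −0.30 and −0.04.

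**Figure D5:**
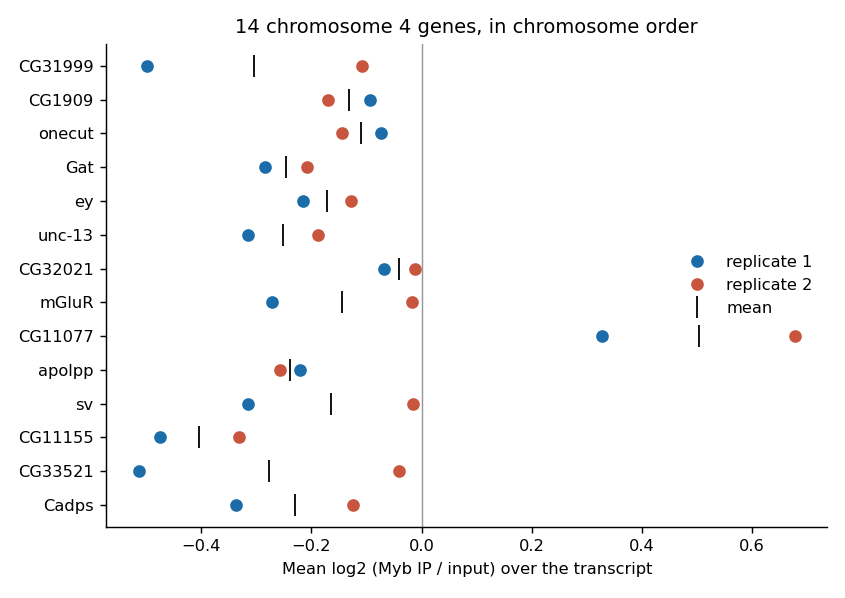
Mean log2 Myb/input ratio (x axis) over the transcripts of 14 chromosome 4 genes (y axis, in chromosome order) in replicate 1 (blue) and replicate 2 (red), with the mean as a tick. In 13 genes both replicates lie below 0 (5 if arrays are centred on their mode), down to −0.51 in replicate 1, and CG11077 has 0.33 and 0.68.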

How the data were processed

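Myb ChIP-chip of wing discs was read from 2 Agilent two-color arrays of 1 design, 1 per biological replicate. The authors deposited scanner intensities that Feature Extraction had background-subtracted and dye-normalized (Cy5 immunoprecipitate, Cy3 input), the scanner's log10 ratio of both, used only to check the dye direction, and a table of log2 values per probe whose centring is not stated. Outlier spots and control spots were left out, log2 ratios of the processed intensity were centred on the median of genome probes, and spots of a probe were averaged. Intensities carry no counts, and the number of arrays limits the precision. Bins of 1000 bp were tested against 0 with limma 3.58.1 (R 4.3.3), with Benjamini-Hochberg adjustment over all bins, after a test on simulated data. Regions joined 4 or more probes at most 300 bp apart whose p, averaged with a neighbor within 1000 bp, was below 0.05 under a normal with mode −0.085 and SD 0.43, which stands in for the per-array error model of the study. The text names the 10 highest and 10 lowest bins, the highest and longest regions, and every gene that could be placed. Gene order is from the release 6 RefSeq table. Members and lists were chosen with earlier results of these data known. Other scripts used Python 3.11.15. The second array design, without chromosome 4, was not used.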

Additional observations from a re-analysis of the deposited data

How the results depend on the processing

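The difference in level between chromosome 4 and 3R kept its sign under every alternative run, and moved by more than the replicate spread only among bins in the middle bands of input (−0.26). Leaving out either replicate gave −0.22 to −0.05, 90 to 181 regions, and 0.16 to 0.44 for the median of the highest 100-kb stretch. The 147 enriched bins (11.1% of 1323) became 221 centred on the mode (16.7% against 21.8% of all bins). At an adjusted p of 0.01 they became 85 (6.42% against 6.39%). With bins of 2 kb, 84 of 674 (12.5%) were enriched, against 14.3% of all such bins of the array design. With bins of 500 bp, 226 of 2626 (8.61%) were enriched, against 10.0% of all such bins. In each of these the enriched share stayed below that of 3R. The 54 depleted bins (4.08%, against 5.05% of all bins) became 106 with normexp background correction (8.01% against 5.43%) and 181 with loess (13.7% against 8.12%). With bin medians they became 31 (2.34% against 3.64%), and centred on the mode 17 (1.28% against 1.54%). Centred on the 3R median they became 106 (8.01% against 8.44%), and at an adjusted p of 0.01 they became 7 (0.529% against 0.729%). In a fit over chromosome 4, 3R and X alone they became 88 (6.65% against 4.06% of all bins of that fit). With bins of 2 kb, 35 of 674 (5.19%) were depleted, against 6.45% of all such bins. Called afresh at a mean p below 0.001, regions numbered 51 in place of 94, and 1 longer region could give several. With noise estimated on chromosome 4 alone, 172 were called. The 13 gene bodies below 0 in both replicates became 5 centred on the mode. The causes were not tested. Over the alternatives, the 20 named bins kept their call in 211 values and lost it in 5, all among the lowest bins. The named bins were chosen as the extremes of the same values, so these counts describe them and do not test them. The fit over 3 chromosomes, the removal of the chromosome ends or of the depleted run, the share of bins above 0 and the gene count by centring were chosen after seeing the data. No paired analysis was possible because all samples are of 1 group and each ratio already pairs immunoprecipitate and input on 1 array. The bin fit without a replicate was not run, since 1 array leaves no residual degrees of freedom.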
